A study of Mus musculus with 14 samples.

Results

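The inhibitory receptors of T cells and the genes that go with them were followed through 14 CT26 tumors: Pdcd1, Ctla4, Lag3, Havcr2, Tigit, Cd160, Btla, Tox, Entpd1 and Cd244a. They were chosen by name, 10 of the 53801 genes in the files, and the Ensembl identifiers were matched to mouse symbols. CT26 is a murine colon carcinoma line, syngeneic to the Balb/c strain. The tumors grew from barcoded CT26 cells, 250000 at each flank site, in female Balb/c mice of 6 to 8 weeks. From day 7 the mice received 200 μg of control IgG (clone 2A3) or of an antibody against PD-1 (clone 1A12), repeated at 3-day intervals until 5 doses had been given, and tumors were taken 3 days later. Controls carried the barcodes too. Bulk RNA-seq covered 5 tumors of 4 mice given control IgG and, of the mice given anti-PD-1, 5 tumors of 4 mice classed as responders and 4 tumors of 3 mice classed as non-responders. The study assigned response by the size of each tumor at the end against control IgG tumors, so the groups are defined by outcome and not by a randomized treatment. Tumors 14L and 14R (control IgG), 30L and 30R (responders) and 33L and 33R (non-responders) were the left and right tumors of the same mouse, as read from their numbers.

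Inhibitory receptors are switched on when T cells are activated, and they then restrain signaling from the T cell receptor. PD-1, the product of Pdcd1, does so through phosphatases that it recruits to the membrane, and the antibody used here blocks its contact with its ligands PD-L1 and PD-L2. In T cells that meet antigen for a long time, as in tumors, several of these receptors come to be expressed together with the transcription factor Tox, a state called exhaustion. Several are not limited to T cells: Havcr2 and Entpd1 are also found in macrophages and dendritic cells, Tigit, Cd160 and Cd244a in natural killer cells, and Btla in B cells. In bulk tumor RNA, fewer cells of a type and less RNA per cell cannot be told apart.

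The totals of expected counts, RSEM's estimates of fragments per gene, lay between 33237744 and 48481461 per tumor. All 10 genes passed the filter on low counts, along with 16277 others, and their counts ran from 15 (Cd160) to 3234 (Entpd1). CPM is the count scaled to library size with TMM factors. The mean fragment length that the tables imply ran from 269.5 to 277.0 bases over the responders and from 277.5 to 287.8 over the non-responders, which did not overlap, and from 268.7 to 277.7 over the control IgG tumors. Its part in the differences below was not tested. Among the genes listed for the CT26 line and colon epithelium, Krt18 ran from 7.75 to 15.9 CPM over the tumors, and Vil1 had less than 1 count in 2 of the 14 tumors. Krt8 averaged 13.2, 6.37 and 4.14 CPM in control IgG tumors, non-responders and responders, and Itga6 averaged 243, 218 and 277 CPM. Between responders and non-responders Krt8 differed by -0.62 on the log2 scale (SE 0.64, edgeR adjusted p = 0.565). Itga6 differed by 0.34 (SE 0.20, edgeR adjusted p = 0.281), and the median of the 6 tested was -0.05. Cdx2, at means of 0.148 CPM in responders and 0.509 in non-responders, differed by -1.80 (SE 0.58, edgeR adjusted p = 0.0634). Over control IgG Krt8 differed by -1.67 (SE 0.62, edgeR adjusted p = 0.0897), and the median of the 6 was -0.44.

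Promoters were looked up for genes that moved together and for a gene that was not called. Of the 10 genes, 8 have a promoter entry in RefSeq (GRCm38.p6), and Lag3 and Tox have none in the table used. The 250 bases before the start are shown for Pdcd1 (chr1:94052554-94052803, minus strand) and Entpd1 (chr19:40659520-40659769, plus strand), which were higher in responders than in non-responders, and for Havcr2 (chr11:46454681-46454930, plus strand), which did not pass that test. For Entpd1 the downstream of its starts was used, because the window of the other overlaps exons of Tctn3. Capitals mark GGAAA, the core motif of NFAT, and TGANTCA, the motif of AP-1, each searched on both strands. GGAAA on the opposite strand reads TTTCC.
Pdcd1: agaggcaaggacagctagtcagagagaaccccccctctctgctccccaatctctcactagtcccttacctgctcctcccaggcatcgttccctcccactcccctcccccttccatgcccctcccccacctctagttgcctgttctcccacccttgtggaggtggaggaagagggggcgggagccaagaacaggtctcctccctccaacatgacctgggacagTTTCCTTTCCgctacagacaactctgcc
Entpd1: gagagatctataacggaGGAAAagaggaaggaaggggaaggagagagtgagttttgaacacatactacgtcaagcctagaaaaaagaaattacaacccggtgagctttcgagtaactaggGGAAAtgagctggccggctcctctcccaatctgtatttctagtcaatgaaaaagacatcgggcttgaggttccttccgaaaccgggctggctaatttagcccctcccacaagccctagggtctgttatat
Havcr2: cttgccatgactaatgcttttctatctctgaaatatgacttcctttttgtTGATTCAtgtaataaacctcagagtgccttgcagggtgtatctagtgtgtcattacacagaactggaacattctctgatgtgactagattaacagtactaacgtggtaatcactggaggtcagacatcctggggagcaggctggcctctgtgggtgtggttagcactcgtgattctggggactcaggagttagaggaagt
The Pdcd1 window held GGAAA at 2 adjoining places that begin 28 and 23 bases before the start. In the Entpd1 window it began 233 and 130 bases before the start. The Havcr2 window held no GGAAA and 1 AP-1 motif, 200 bases before the start. Over the 10 windows of the 8 genes, 6 held GGAAA, against 55.6% of 32851 promoters of the same length, 2 held TGANTCA (Havcr2 and Cd244a), against 6.75%, and 1 held the GAS motif TTCNNNGAA (Cd160), against 7.02%. Windows with GGAAA were those of Pdcd1, Tigit, Ctla4 and Cd244a and 1 each of Cd160 and Entpd1. Those of Havcr2 and Btla and the other windows of Cd160 and Entpd1 held none. Ctla4 and Cd244a were not called in any comparison of level, so GGAAA did not separate called genes from the others. These matches are letters in a window and were not measured as binding.

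Pdcd1 (ENSMUSG00000026285, chr1:94038305-94052553 in mm10), which encodes the target of the antibody, rose in responders relative to non-responders. Responder tumors 24L, 26R, 30L, 30R and 35L had 18.5, 10.2, 11.1, 15.9 and 14.3 CPM. Non-responder tumors 29L, 32R, 33L and 33R had 8.12, 8.27, 5.47 and 7.98 CPM, and control IgG tumors 14L, 14R, 16R, 17R and 20R had 13.3, 9.69, 7.15, 10.1 and 6.58 CPM. Every responder was above every non-responder, while control IgG tumor 14L, at 13.3 CPM, lay above 2 of the 5 responders. The means were 14.0 ± 3.43 CPM (SD, n = 5) in responders, 7.46 ± 1.33 (n = 4) in non-responders and 9.37 ± 2.70 (n = 5) in control IgG tumors. Responders exceeded non-responders by 0.91 on the log2 scale (SE 0.22, edgeR adjusted p = 0.0244), or 1.88-fold. Against control IgG it was 0.58 (SE 0.21, edgeR adjusted p = 0.0789), which did not pass the threshold of 0.05. The call against non-responders depended on single tumors, with an edgeR adjusted p of 0.0674 without responder 24L, 0.0581 without responder 30R and 0.0536 without non-responder 32R. The comparison of responders with control IgG passed without control IgG tumor 14L (adjusted p = 0.0294) and with DESeq2 (0.0417). It also passed in the fits that allow for tumors of the same mouse. These had mouse as a random effect (limma-voom, 0.0488) or 1 library per mouse (edgeR, log2 fold change 0.69, 0.0338). Over all genes this comparison had 2147 calls in the main fit and 2856 with 1 library per mouse. Between responders and non-responders, limma-voom called more genes with mouse as a random effect than without it. These fits are therefore not read as stricter tests.

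Lag3 (ENSMUSG00000030124, chr6:124904361-124911705), a receptor that binds MHC class II on antigen-presenting cells, was higher in responders than in either other group. The responders 24L, 26R, 30L, 30R and 35L had 12.5, 5.71, 7.56, 7.79 and 5.97 CPM. The non-responders had 3.26, 3.47, 3.82 and 3.48 CPM in 29L, 32R, 33L and 33R, and the control IgG tumors had 4.97, 3.95, 2.44, 4.56 and 2.03 CPM in 14L, 14R, 16R, 17R and 20R. The responders did not overlap with the others, and the non-responders lay within the range of the control IgG tumors. The log2 fold change was 1.17 (SE 0.28, edgeR adjusted p = 0.0211) over non-responders and 1.14 (SE 0.26, edgeR adjusted p = 0.0105) over control IgG. Without responder 24L the first of these had an adjusted p of 0.0535, and without non-responder 32R 0.0559. The MHC class II genes that encode its ligands, H2-Aa, H2-Ab1 and H2-Eb1, rose as well, by 1.78, 1.75 and 1.96 on the log2 scale over non-responders.

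Tox (ENSMUSG00000041272, chr4:6686353-6991557), a transcription factor known for its part in T cell exhaustion, had the highest log2 fold change of the 10 genes between responders and non-responders. It was at 5.27, 3.06, 2.38, 5.14 and 4.93 CPM in responders 24L, 26R, 30L, 30R and 35L. It was at 1.79, 1.95, 2.01 and 1.01 CPM in non-responders 29L, 32R, 33L and 33R, and at 2.70, 1.92, 1.58, 2.0 and 1.74 CPM in control IgG tumors 14L, 14R, 16R, 17R and 20R. Responders lay above all non-responders, and 30L lay below control IgG tumor 14L. The difference was 1.29 on the log2 scale over non-responders (SE 0.27, edgeR adjusted p = 0.0141) and 1.07 over control IgG (SE 0.25, edgeR adjusted p = 0.0135). Both calls held with any tumor left out, and that over control IgG was lost on log2(TPM + 0.1) (limma adjusted p = 0.0867). The exons of Tox share 260 of 7609 bases with the antisense gene Gm11802, which was listed at 0 TPM in all 14 tumors.

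Entpd1 (ENSMUSG00000048120, chr19:40612366-40741602) encodes CD39, an ectoenzyme that degrades extracellular ATP on the way to adenosine and that marks tumor-reactive exhausted T cells as well as macrophages and regulatory T cells. It had the highest CPM of the 10 genes. Responders 24L, 26R, 30L, 30R and 35L had 64.6, 46.3, 60.6, 64.2 and 47.3 CPM. Non-responders 29L, 32R, 33L and 33R had 44.7, 35.3, 39.9 and 32.2 CPM, and control IgG tumors 14L, 14R, 16R, 17R and 20R had 40.8, 38.7, 34.3, 39.9 and 34.6 CPM. The lowest responder, 26R, was above the highest tumor of the other groups. The log2 fold change was 0.57 (SE 0.12, edgeR adjusted p = 0.0150) over non-responders and 0.59 (SE 0.12, edgeR adjusted p = 0.00515) over control IgG, and both held with any tumor left out. On TPM the comparison with control IgG did not pass (limma on log2(TPM + 0.1), adjusted p = 0.0676). RSEM gave Entpd1 a mean transcript length of 2027 bases in 14L and 2227 in 30L, against 2968 to 3350 in the other tumors, and its TPM in 14L was 28.4 against 13.3 to 15.2 in the other control IgG tumors, and in 30L 37.5 against 19.6 to 30.9 in the other responders.

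Cd160 (ENSMUSG00000038304, chr3:96798763-96829351) and Btla (ENSMUSG00000052013, chr16:45224315-45257670) encode receptors that share the ligand HVEM, the product of Tnfrsf14. Cd160 was at 1.99, 1.40, 1.16, 1.35 and 1.42 CPM in responders 24L, 26R, 30L, 30R and 35L, which is 44 to 86 counts. It was at 0.723, 0.556, 0.595 and 0.887 CPM in non-responders 29L, 32R, 33L and 33R, and at 0.994, 0.534, 0.394, 0.772 and 0.366 CPM in control IgG tumors 14L, 14R, 16R, 17R and 20R. No responder overlapped with another group, and this was the lowest of the 10 genes in CPM. Cd160 differed by 1.09 on the log2 scale from non-responders (SE 0.30, edgeR adjusted p = 0.0361) and by 1.26 from control IgG (SE 0.28, edgeR adjusted p = 0.00981). Against non-responders the call was lost without responder 24L (adjusted p = 0.0950), 30R (0.0654) or 35L (0.0560), and without non-responder 29L (0.0513), 32R (0.0964) or 33L (0.0631). It was also lost with no filter on low counts (0.0564). Its exons share 68 of 2642 bases with Pdzk1 on the other strand, which reached at most 0.69 TPM, and whether the counting used strand is not given in the sources used here, so that reads from those bases cannot be told apart.

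Btla had 1.46 to 2.36 CPM in responders, 0.764 to 1.33 in non-responders and 0.663 to 1.39 in control IgG tumors, again without overlap between responders and the rest. Over control IgG it differed by 0.83 on the log2 scale (SE 0.22, edgeR adjusted p = 0.0255). That call was lost without control IgG tumor 14R (0.0534) or 20R (0.0651) and without responder 24L (0.0741) or 30R (0.0511). Over non-responders the log2 fold change was 0.78 (SE 0.24, edgeR adjusted p = 0.0523), just short of the threshold, and it passed in 6 of 12 other fits, among them DESeq2 (adjusted p = 0.0174). It also passed without control IgG tumor 20R (0.0409) or non-responder 33L (0.0478). Tnfrsf14 was 0.76 higher on the log2 scale in responders than in non-responders (SE 0.17, edgeR adjusted p = 0.0175).

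Tigit (ENSMUSG00000071552, chr16:43648867-43664146), a receptor for Pvr and nectins that competes with the activating receptor Cd226, was higher in responders than in control IgG tumors and did not pass the test against non-responders. Responders 24L, 26R, 30L, 30R and 35L had 21.1, 18.2, 20.6, 17.4 and 15.7 CPM. Non-responders 29L, 32R, 33L and 33R had 18.9, 15.2, 10.7 and 10.8 CPM, and control IgG tumors 14L, 14R, 16R, 17R and 20R had 9.74, 11.1, 14.0, 12.8 and 14.8 CPM. All responders exceeded all control IgG tumors, whereas non-responder 29L lay above 3 of the 5 responders. The log2 fold change was 0.57 over control IgG (SE 0.16, edgeR adjusted p = 0.0319) and 0.42 over non-responders (SE 0.17, edgeR adjusted p = 0.133). Without non-responder 29L the latter was 0.60 with an adjusted p of 0.0321. The call against control IgG did not hold without responder 24L (0.0857), 30L (0.0683) or 30R (0.0522), without control IgG tumor 14L (0.0686), 14R (0.0653) or 17R (0.0568), or with 1 library per mouse (0.0571).

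Ctla4 (ENSMUSG00000026011, chr1:60887000-60915832), Havcr2 (ENSMUSG00000020399, chr11:46454935-46481255) and Cd244a (ENSMUSG00000004709, chr1:171559193-171609746) did not pass the test in any comparison of their levels. Havcr2, which encodes the inhibitory receptor TIM-3 of T cells and myeloid cells, was at 20.4, 13.1, 17.0, 16.6 and 12.5 CPM in responders 24L, 26R, 30L, 30R and 35L. It was at 16.6, 17.9, 16.4 and 18.9 CPM in non-responders 29L, 32R, 33L and 33R, and at 14.3, 11.8, 13.4, 15.7 and 14.8 CPM in control IgG tumors 14L, 14R, 16R, 17R and 20R. The non-responders lay inside the range of the responders and above all control IgG tumors. The differences were -0.13 on the log2 scale over non-responders (SE 0.13, edgeR adjusted p = 0.558), 0.19 over control IgG (SE 0.13, edgeR adjusted p = 0.363) and 0.32 for non-responders over control IgG (SE 0.13, edgeR adjusted p = 0.931). Ctla4, which binds Cd80 and Cd86 on antigen-presenting cells, had 2.38 to 5.13 CPM in responders, 2.46 to 4.34 in non-responders and 2.16 to 4.29 in control IgG tumors. Ctla4 differed from non-responders by 0.13 on the log2 scale (SE 0.26, edgeR adjusted p = 0.790). Cd244a, a receptor for Cd48 that can inhibit or activate, had 2.65 to 4.49, 2.63 to 4.5 and 2.43 to 3.16 CPM in responders, non-responders and control IgG tumors. Responders and non-responders differed by 0.02 on the log2 scale in Cd244a (SE 0.19, edgeR adjusted p = 0.957).

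**Figure D1:**
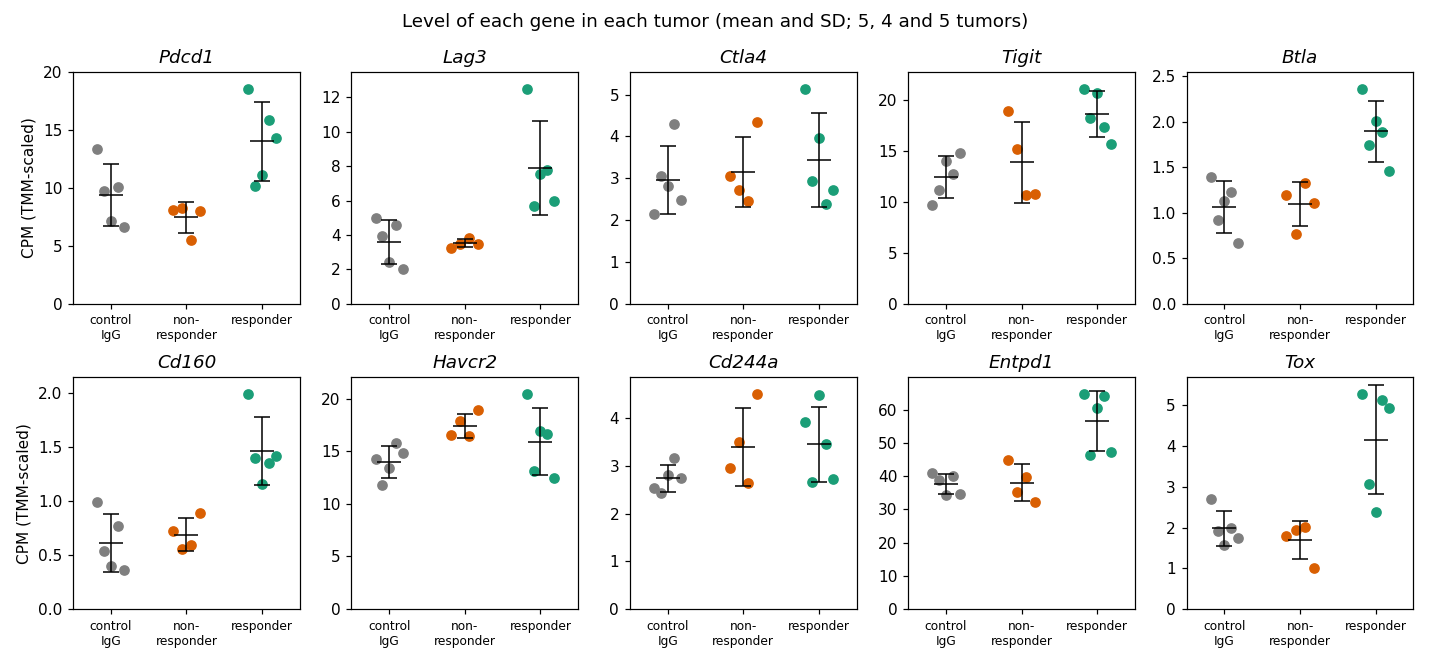
CPM (TMM-scaled, linear axis from 0) of each of the 10 genes in each tumor, as points, with bars for the mean and SD of 5 control IgG tumors, 4 non-responders and 5 responders. Responders sit above all non-responders for Pdcd1, Lag3, Btla, Cd160, Entpd1 and Tox, and overlap with them for Ctla4, Tigit, Havcr2 and Cd244a.

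Over the 10 genes, 5 rose in responders relative to non-responders (Pdcd1, Lag3, Cd160, Tox and Entpd1) and none fell. Of the 16287 genes tested, 5.08% were called higher and 785 genes lower. Against control IgG 6 rose (Lag3, Tigit, Cd160, Btla, Tox and Entpd1) and none fell, where 7.88% of all genes were called higher and 863 genes lower. The responders lay above the non-responders without overlap for 6 of the 10, against 6.8% of all genes, and above the control IgG tumors for 5, against 8.34%. The median log2 fold change of the 10 genes was 0.68 over non-responders and 0.58 over control IgG, and that of all genes was 0.01 and -0.01. The comparisons share tumors and are not independent of each other. Responder 24L had the highest CPM of all 14 tumors for 9 of the 10 genes, the exception being Cd244a. Without 24L, 2 genes were called against non-responders, Tox and Entpd1, and the same 2 without non-responder 32R. Without responder 30R there were 3, Lag3, Tox and Entpd1. The calls over all genes, in either direction, fell as well, from 1612 to 569 without 24L, 615 without 32R and 686 without 30R.

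Between non-responders and control IgG tumors no difference passed the test in the 10 genes. None of the 16287 genes was called by edgeR in that comparison (0%), where 758 genes, and of the 10 only Havcr2, had an unadjusted p under 0.05, and DESeq2 called 18 genes and none of the 10. The log2 fold changes of the 10 genes lay between -0.33 (Pdcd1, SE 0.22) and 0.32 (Havcr2, SE 0.13).

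**Figure D2:**
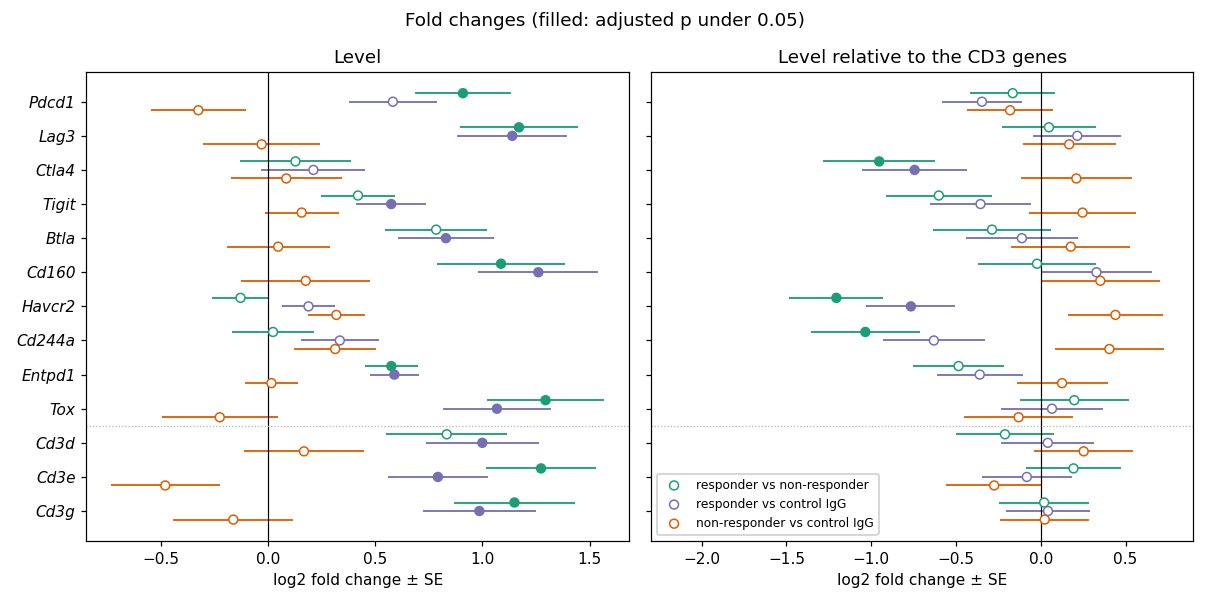
Log2 fold change with its SE for each gene, and for the CD3 genes below the dotted line, in 3 comparisons; filled circles have an adjusted p under 0.05 (edgeR on the left, limma on the right). On the left Pdcd1, Lag3, Cd160, Tox and Entpd1 are filled for responders against non-responders, and on the right, relative to the CD3 genes, Ctla4, Havcr2 and Cd244a are filled, at negative values, for responders against non-responders.

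The receptors were next read against the CD3 genes, which encode chains of the T cell receptor complex and are found in T cells of every kind. Cd3e had 4.83 ± 0.836 CPM in responders (SD, n = 5), 1.99 ± 0.253 in non-responders (n = 4) and 2.79 ± 1.07 in control IgG tumors (n = 5). It rose by 1.27 on the log2 scale over non-responders (SE 0.26, edgeR adjusted p = 0.0123), Cd3g rose by 1.15 (SE 0.28, edgeR adjusted p = 0.0247), and Cd3d differed by 0.83 (SE 0.28, edgeR adjusted p = 0.0724). For each tumor the mean log2 CPM of Cd3d, Cd3e and Cd3g was subtracted from the log2 CPM of a gene, and the difference was tested with limma over all genes. A gene of constant level falls on this scale when the CD3 genes rise, and 79.8% of all genes were called lower in responders than in non-responders, with a median of -1.05. The noise of the 3 CD3 genes enters every such value.

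Relative to the CD3 genes, none of the 10 genes was called higher in responders than in non-responders, where 32 of the 16287 genes were, and 8 of the 10 were lower in mean. Pdcd1 was at 1.08, 1.25, 1.05, 1.46 and 1.28 log2 units above the CD3 mean in responders 24L, 26R, 30L, 30R and 35L, and at 1.48, 1.36, 1.21 and 1.51 in non-responders 29L, 32R, 33L and 33R. The control IgG tumors had 1.43 to 1.86 log2 units. The groups of treated tumors overlapped, and the difference was -0.17 (SE 0.25, limma adjusted p = 0.533). Lag3, Cd160 and Tox, whose levels rose, differed by 0.05 (SE 0.27, limma adjusted p = 0.870), -0.02 (SE 0.35, limma adjusted p = 0.951) and 0.20 (SE 0.32, limma adjusted p = 0.561) on this scale. Entpd1 differed by -0.49 (SE 0.27, limma adjusted p = 0.0935), Tigit by -0.60 (SE 0.31, limma adjusted p = 0.0772) and Btla by -0.29 (SE 0.35, limma adjusted p = 0.437).

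Ctla4, Havcr2 and Cd244a were lower relative to the CD3 genes in responders than in non-responders. Havcr2 had 1.22, 1.61, 1.66, 1.52 and 1.09 log2 units in responders 24L, 26R, 30L, 30R and 35L and 2.51, 2.47, 2.79 and 2.74 in non-responders 29L, 32R, 33L and 33R. The groups did not overlap, and the difference was -1.21 (SE 0.28, limma adjusted p = 0.000891). Ctla4 differed by -0.95 (SE 0.33, limma adjusted p = 0.0111) and Cd244a by -1.03 (SE 0.32, limma adjusted p = 0.00560), also without overlap. The share of all genes without overlap on this scale was not counted, so the lack of overlap is not read as particular to these genes. These 3 of the 10 genes compare with 79.8% of all genes called lower, and the median of the 10 was -0.39. All 3 calls held with any tumor left out. With Cd3e alone or a list of 15 T cell genes in place of the CD3 mean, 5 of the 10 were lower, Tigit and Entpd1 being added, and with Cd8a alone 4, Tigit being added. Over all genes the calls in either direction were 13024 with the CD3 mean, 14268 with Cd3e, 13886 with the 15 genes and 13713 with Cd8a.

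Against control IgG tumors, Havcr2 (-0.77, SE 0.26, limma adjusted p = 0.0112) and Ctla4 (-0.74, SE 0.31, limma adjusted p = 0.0319) were lower relative to the CD3 genes in responders, 2 of the 10 where 75.3% of all genes were called lower. The call of Ctla4 was lost without control IgG tumor 16R (0.0852), 17R (0.0766) or 20R (0.0646) and without responder 30R (0.0881) or 35L (0.0754), which left 1 of the 10. With the 15 T cell genes as the denominator 5 were lower, Pdcd1, Entpd1 and Cd244a being added, and with Cd3e or Cd8a alone 1. Cd244a was also called with mouse as a random effect (limma adjusted p = 0.0402) and with 1 library per mouse (0.0247). Over all genes the calls in either direction were 12352 with the CD3 mean, 13673 with the 15 genes, 11265 with Cd3e and 11593 with Cd8a. Between non-responders and control IgG none of the 10 was called on this scale by limma, where 0.0123% of all genes were, and none of the 10 had an unadjusted p under 0.05. DESeq2 was not run on these differences.

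**Figure D3:**
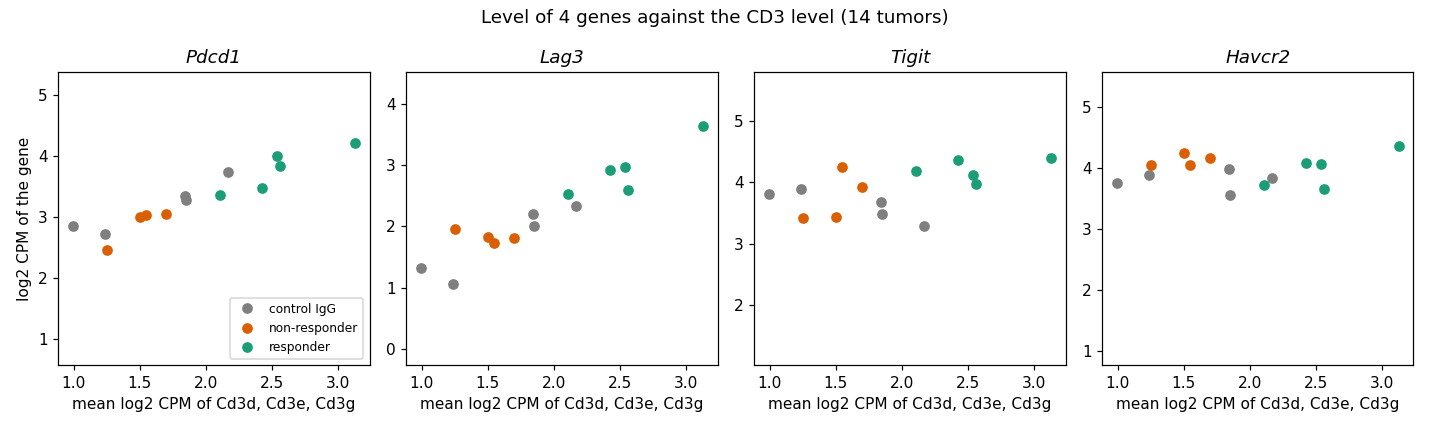
Log2 CPM of Pdcd1, Lag3, Tigit and Havcr2 against the mean log2 CPM of Cd3d, Cd3e and Cd3g, 1 point per tumor (14 tumors, 3 groups by color). Pdcd1 (r = 0.94) and Lag3 (r = 0.95) rise with the CD3 level, while Havcr2 has r = 0.19 and Tigit 0.50.

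Over the 14 tumors, the log2 CPM of Lag3 and Pdcd1 had Pearson correlations of 0.95 and 0.94 with the CD3 mean, Cd160 0.90, Tox and Entpd1 0.85, Btla 0.75, Tigit 0.50, Ctla4 0.32, Cd244a 0.31 and Havcr2 0.19. These are descriptions, since the tumors share group, mouse and scaling. After the mean of each group was subtracted, a measure added after the data were seen, Pdcd1 had 0.91, Lag3 0.86 and Cd160 0.77, while Tox had 0.55, Entpd1 0.52, Btla 0.33, Havcr2 0.40, Ctla4 0.29, Cd244a 0.20 and Tigit -0.16. Among the genes themselves, Lag3 and Cd160 had the highest correlation, 0.92. Havcr2 and Cd244a had 0.79, and neither exceeded 0.385 with Pdcd1, Lag3, Cd160, Btla, Tox or Entpd1.

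The genes most like each of the 10, by Pearson r of log2 CPM over the 14 tumors, differed between them. Those of Pdcd1 were Trac (0.94), a constant gene of the T cell receptor, Cd8a (0.94) and Cd3e (0.92), which stood in the third place of 16286 genes. Those of Lag3 were Gbp9 (0.98), Uba7 (0.98) and Gbp7 (0.98), where the GBP genes encode interferon-induced GTPases. Cd160 was nearest to H2-Ea-ps (0.95), Omp (0.95) and H2-Aa (0.95), and Entpd1 to Mpeg1 (0.98), a macrophage gene, Grk5 (0.97) and Samhd1 (0.97). Tox was nearest to Ptk2b (0.95), Tspan14 (0.94) and Emilin1 (0.94), and Btla to Tent5a (0.93), Pla2g2d (0.93) and Ccr9 (0.93). Tigit was nearest to Slc9a4 (0.93), Itgb7 (0.93) and Pla2g7 (0.92), and Cd3e came at rank 3592 for it. For Ctla4 they were Nudt18 (0.85), Txk (0.85) and Hist1h2al (0.82), for Havcr2 Plin2 (0.84), Chst13 (0.83) and Ccdc17 (0.82), and for Cd244a Gm36723 (0.90), Ncald (0.89) and Mkrn1 (0.86). Cd3e was at rank 121 for Lag3, 81 for Tox, 217 for Cd160, 572 for Btla and 608 for Entpd1, and at 4660, 8524 and 5878 for Ctla4, Havcr2 and Cd244a. The nearest genes depended on the measure: of the 30 named, 13 were also nearest by Spearman rho, 9 on TPM and 10 within groups. Cd3e stood for Pdcd1 at rank 2 by Spearman rho, 32 on TPM and 28 within groups, and within groups at 463 for Tox and 1314 for Entpd1.

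Levels of different genes were compared in TPM, which divides by transcript length. The order of the medians over the 14 tumors was Tigit (24.1 TPM), Entpd1 (16.5), Havcr2 (7.36), Pdcd1 (6.68), Lag3 (2.86), Ctla4 (2.01), Cd244a (1.17), Cd160 (0.85), Tox (0.78) and Btla (0.505). The ranges of neighbors in this order overlapped in every case, and the order changed by group. Pdcd1 had a median of 10.8 TPM in responders, above Havcr2 at 8.47 and higher in 4 of 5 tumors, and 4.76 in non-responders, below Havcr2 at 7.83 in 4 of 4. In control IgG tumors the median of Tox (0.77) was above that of Cd160 (0.60). Within tumors Tigit was above Entpd1 in 12 of 14, Entpd1 above Havcr2 in 14, Havcr2 above Pdcd1 in 8, and Pdcd1 above Lag3 in 14. Tigit, Entpd1, Havcr2 and Pdcd1 exceeded Cd3e in all 14 tumors. Tigit and Entpd1 also exceeded Cd3d, Cd3g and Cd8a in all 14. The ratio of Tigit to Cd3e in TPM ran from 4.12 to 17.2, with a median of 7.46, whereas that of Pdcd1 ran from 1.64 to 3.44. Tigit TPM lay between 28.4 and 39.2 in responders, 13.6 and 31.7 in non-responders and 17.2 and 24.3 in control IgG tumors.

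**Figure D4:**
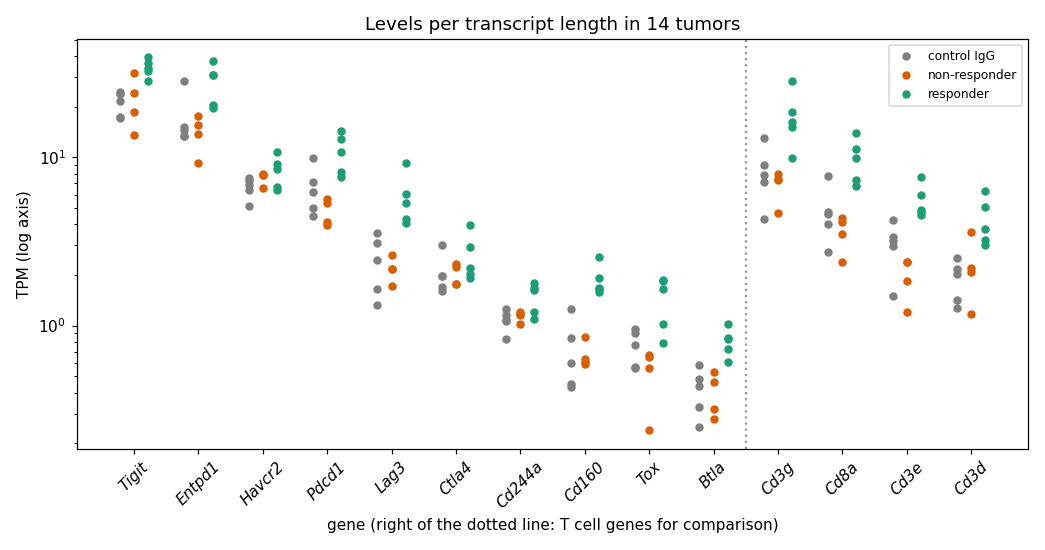
TPM on a log axis of the 10 genes, ordered by their median, and of 4 T cell genes to the right of the dotted line, in each of 14 tumors by group. Tigit (13.6 to 39.2 TPM) and Entpd1 (9.29 to 37.5) lie above Cd3e (1.2 to 7.62) in every tumor, and Btla (0.25 to 1.02) is the lowest.

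The other genes of these pathways came from lists with 155 further genes, of which 148 were tested. In responders 45 rose relative to non-responders and none fell, where 827 of the 16287 genes tested were called higher and 785 lower. Of the ligands 6 of 16 rose: Pdcd1lg2, the PD-L2 gene, by 1.94 on the log2 scale (SE 0.49, edgeR adjusted p = 0.0265), Cd274, the PD-L1 gene, by 0.87 (SE 0.24, edgeR adjusted p = 0.0354), Tnfrsf14 and the 3 MHC class II genes given above. Cd274 had 47.8 ± 20.2 CPM in responders (SD, n = 5), 26.1 ± 1.68 in non-responders (n = 4) and 28.3 ± 5.13 in control IgG tumors (n = 5). The median of the 16 was 0.29. Cd80 and Cd86, the ligands of Ctla4, differed by 0.19 (edgeR adjusted p = 0.292) and 0.52 (edgeR adjusted p = 0.0639). Of the phosphatases and adaptors 1 of 8 rose, Ptpn6, which encodes SHP-1, by 0.58 (SE 0.11, edgeR adjusted p = 0.0102). Of the costimulatory receptors 4 of 8 rose: Cd226, the activating partner of Tigit, by 1.57, Cd27 by 1.56, Icos by 0.92 and Tnfrsf4 by 0.82.

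Of 12 other inhibitory receptors 3 rose over non-responders: Cd5 by 1.55, Vsir, which encodes VISTA, by 0.49 and Lair1 by 0.39. Of 20 tested transcription factors and markers reported in exhausted or progenitor T cells 6 rose, among them Tbx21 (1.30), Irf4 (1.25), the chemokine receptor Cxcr6 (1.13) and Tcf7 (0.97), a factor of progenitor-like T cells. Nr4a1 and Nr4a2, induced by T cell receptor signals, differed by -0.08 (edgeR adjusted p = 0.757) and -0.07 (edgeR adjusted p = 0.797). Nr4a3, on the same list, differed by 0.41 (SE 0.24, edgeR adjusted p = 0.272). In the adenosine pathway that Entpd1 opens, 1 of 8 rose, the receptor Adora2a, by 0.84 (SE 0.20, edgeR adjusted p = 0.0235). Nt5e, which encodes CD73 and makes adenosine from AMP, differed by 0.18 (edgeR adjusted p = 0.339). Of 8 cytotoxic genes 2 rose, Ifng by 1.81 and Ccl5 by 1.45, and Gzmb and Prf1 differed by 0.21 (edgeR adjusted p = 0.705) and -0.24 (edgeR adjusted p = 0.638). Gzmk differed by 1.004 (edgeR adjusted p = 0.0564) and Nkg7 by 0.79 (edgeR adjusted p = 0.0538), both just short of the threshold. Gzma and Fasl each differed by 0.59 (edgeR adjusted p = 0.158 and 0.126). The median of the 8 over non-responders was 0.69, and over control IgG 5 of the 8 rose. Against control IgG 68 list genes rose and 3 fell: Pvr, a ligand of Tigit, by 0.49 on the log2 scale, Lef1 by 0.62 and Cdx2 by 1.97, named after their values were seen. The comparison of lists with non-responders changed with single tumors: 28 genes were called without responder 24L and 29 without non-responder 32R. Against control IgG, 71 were called in either direction, and 47, 42 and 41 without control IgG tumors 16R and 20R and responder 24L.

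Markers of several cell types moved with these receptors, and their part in the differences was not tested. All but 1 of 15 T cell genes rose over non-responders (14, median 1.22), among them Cd5 (1.55), Cd4 (1.40) and Lat (1.31), and their summed CPM was 83.1 to 146 in responders, 45.8 to 57.9 in non-responders and 37.2 to 74.4 in control IgG tumors. Of 7 natural killer cell genes 1 rose, Klrk1, by 0.95, and over control IgG all 7 rose, with a median of 1.06. For these 7 the summed CPM was 40.0 to 68.5, 24.8 to 40.3 and 18.4 to 30.3 in the same order. Of 6 regulatory T cell genes 2 rose, Foxp3 by 1.47 and Tnfrsf4, with sums of 10.4 to 19.0, 7.97 to 9.03 and 6.57 to 9.97. Of 8 dendritic cell genes 4 rose, Xcr1 (1.72), Clec9a (1.53), Flt3 (1.15) and Itgae (0.91), with sums of 207 to 275, 163 to 196 and 164 to 184. Of 10 macrophage genes 1 rose, Adgre1, by 0.51, with sums of 1939 to 2384, 1570 to 1928 and 1716 to 1968. Of 5 tested B cell genes 2 rose, Pax5 (1.66) and Cd22 (1.01), and Ms4a1, Blk and Fcmr had less than 1 count in 2 or 3 of 14 tumors. None of 8 endothelial genes and none of 8 epidermis genes was called over non-responders. Pecam1 and Cdh5 differed by 0.27 (edgeR adjusted p = 0.125) and 0.26 (edgeR adjusted p = 0.402) on the log2 scale. Krt14 and Krt10 differed by -0.15 (SE 1.21) and 0.49 (SE 0.90), and the median of the epidermis genes was 0.14. The summed CPM of the epidermis genes ran from 8.05 to 1018 over the tumors. Of 6 tested CT26 and colon genes none was called over non-responders. Over control IgG the counts that rose were 15 of 15 T cell, 3 of 6 regulatory T cell, 6 of 8 dendritic cell, 1 of 10 macrophage, 3 of 5 B cell and 2 of 8 endothelial genes, the last being Emcn (0.40, edgeR adjusted p = 0.0102) and Tie1 (0.43, edgeR adjusted p = 0.0365), named after their values were seen, and none of the epidermis genes.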

How the data were processed

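Per the labels, STAR, RSEM and the mm10 build were used by the authors, whose settings are stated for cell lines and referred to for tumors. Each deposited table gives RSEM expected counts, without normalization, beside deposited TPM, scaled by effective length and by total, and deposited FPKM, not used here. Testing was by edgeR 4.0.16 under R 4.3.3 on rounded counts (TMM, filterByExpr, quasi-likelihood test, Benjamini-Hochberg adjustment over 16287 genes), all 14 tumors in the fit. Differences from the CD3 mean, in log2 CPM with a prior count of 2, were tested with limma 3.58.1. No p-value here accounts for tumors of the same mouse except in the fits with mouse as a random effect or 1 library per mouse, and tumors of a group may share more than the labels state. GENCODE vM21 and a symbol table (53620 of 53801 identifiers) gave names and exons. The genes, the lists and the tests were chosen with earlier results of these data known. Named were the 10 genes, the CD3 genes, the 3 genes most like each of the 10, and from each list up to 4 called genes with the largest change between responders and non-responders (with none called, the 2 highest in CPM). Cd274, Tnfrsf14, Cd80, Cd86, Nr4a1, Nr4a2, Nr4a3, Nt5e, Gzma, Gzmb, Gzmk, Nkg7, Fasl, Prf1, Emcn, Tie1, Krt8 and the genes that fell were named after their values were seen. Replicates were compared by chi-square per gene (lowest 19.9 within a group), and all were kept. In simulated counts for responders against non-responders, 63% of 200 changed genes among 16287 were recovered by edgeR, with 5.97% of calls false, against 72.5% and 19.4% for DESeq2 1.42.0. These counts were drawn once with the spread that edgeR estimated and with all tumors independent, where the data hold tumors of the same mouse. The simulation therefore does not give the rate of false calls in these data and does not rank the tools. At this depth 3 counts are at most 9.03e-06% of a tumor's total, which covers counting error only. Alternatives were other normalizations, filters, tools, denominators and TPM with pseudocounts of 1 and 0.1. The result of 1 listed gene is not reported here.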

Additional observations from a re-analysis of the deposited data

Results flagged for a closer look

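In 60 groups of values (10 genes, 3 groups, CPM and level relative to the CD3 genes), 3 held a tumor far from the others by Dixon's test, and about 5% of groups, or 3, would be so by chance. Pdcd1 was at 5.47 CPM in non-responder 33L, where the other 3 non-responders had 7.98 to 8.27. Lag3 relative to the CD3 genes was at 0.0276 log2 units in responder 35L, where the other responders had 0.418 to 0.516. Cd160 relative to the CD3 genes was at -1.57 log2 units in responder 26R, where the other responders had -2.15 to -2.01.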

How the results depend on the processing

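Of 1440 fold changes of the 10 genes under alternatives, 1378 kept their direction and side of the threshold or had no call to lose, 33 lost the call, 29 gained it, and none reversed a call. The count of genes called over non-responders, 5, was 4 to 7 under other normalizations, filters, tools and scales, and 2 to 6 with 1 tumor left out. Over control IgG, 6 became 4 to 7 and 4 to 6. The calls over all genes in that comparison moved as well, from 2147 in the main fit to 1192 without responder 24L and 1387 without responder 30R. In each of these fits without a responder, 4 of the 10 were called. Non-responders against control IgG gave 0 in every fit. Relative to the CD3 genes, the 3 called over non-responders were 5 with Cd3e alone and 5 with the T cell list, and 3 to 4 with 1 tumor left out. The 2 called over control IgG were 1 with Cd3e alone, 5 with the T cell list, 1 with Cd8a alone, 3 with mouse as a random effect or 1 library per mouse, and 1 to 3 with 1 tumor left out. The 45 list genes called over non-responders were 77 on log2(TPM + 1) and 78 on log2(TPM + 0.1), and 28 to 49 with 1 tumor left out, and the 71 over control IgG were 41 to 82. TPM moved the median of all genes by 0.16 and 0.23 (log2) over non-responders with pseudocounts of 1 and 0.1, and by 0.10 and 0.13 over control IgG, so changes in TPM are to be read against that. The cause of these shifts was not tested. Mean-centering within groups left the correlation of Pdcd1 with Cd3e at 0.81, from 0.92, and that of Tigit at -0.31, from 0.40. No paired analysis was possible because the groups share no mouse or replicate number, and mouse as a random effect or 1 library per mouse gave 5 or 6 genes over non-responders and 6 or 7 over control IgG, where Pdcd1 was gained in both. With 1 library per mouse the calls over all genes were 1760 against 1612 over non-responders and 2856 against 2147 over control IgG. Mouse as a random effect also called more genes over non-responders than the main fit. The gain of Pdcd1 is thus not shown to be particular to it. Depth limits Cd160 and Btla most, which had 15 to 102 counts per tumor.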

Other observations

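In control IgG mouse 14 the left tumor was higher for 8 of 10 genes and the right for 2, with ratios of the higher to the lower CPM between 1.04 and 1.86. In responder mouse 30 it was 5 and 5, with ratios of 1.02 to 2.16, the widest being Tox, at 2.38 CPM in 30L and 5.14 in 30R. In non-responder mouse 33 it was 4 and 6, with ratios of 1.01 to 1.98. Pdcd1 had 13.3 and 9.69 CPM in 14L and 14R, 11.1 and 15.9 in 30L and 30R, and 5.47 and 7.98 in 33L and 33R. With 1 such mouse per group, no test was made.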
